A study of Homo sapiens with 39 samples.

Results

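The S100 genes examined here are S100B, S100A1, S100A2, S100A4, S100A6, S100A10, S100A11, S100A13, S100A16 and S100P. They were taken by symbol from a table of 60671 gene identifiers, and 10 of 10 were found. S100 proteins are small EF-hand proteins that work mostly as dimers. In most of them, calcium opens a surface that grips a partner protein, such as an annexin, a cytoskeletal motor or p53. Some are also secreted and bind cell surface receptors, among them AGER (RAGE) and TLR4. In skin pathology the family is best known for S100B, whose protein is a standard stain and serum marker of melanocytic tumours. Most S100 genes lie in a cluster on chromosome 1 beside genes of the epidermis. Of the 10 genes, 8 are on chromosome 1, S100B (ENSG00000160307) is on chromosome 21 and S100P (ENSG00000163993) is on chromosome 4.

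RNA was measured by poly-A RNA-seq in A375 and WM115, both established human melanoma cell lines, as unedited cells (WT) and as clones with an enhancer region of SOX10 deleted. The labels name the deletion R1_del in clones 1.1 and 1.2 and R4_del in clones 4.1 and 4.2. A375 gave 4 WT libraries, 3 of clone 1.1, 4 of clone 1.2, 4 of clone 4.1 and 3 of clone 4.2. WM115 gave 4 WT libraries, 5 of clone 1.1, 3 each of clones 1.2, 4.1 and 4.2, and 3 of a clone titled 1.3 whose genotype label reads R4_del. That clone was kept apart from both deletions. SOX10 encodes the transcription factor that specifies melanocytes and other neural crest cells. All libraries of a clone repeat that clone, and no clone without a deletion is named in the labels. A difference between a clone and WT therefore cannot be told apart from what cloning alone does. The library names of WM115 WT carry a number after WT that those of A375 WT lack. Whether that number marks an isolate is not stated. Nothing in the labels says that the libraries came from separate cultures, so p-values measure the spread between libraries, which may be technical.

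Levels are given in TPM, a share of each library corrected for transcript length, with no read counts, so depth is unknown. Mitochondrially encoded genes took 0.968% to 4.92% of TPM in A375. In WM115 they took 13.7% to 15.6% in WT and 4.71% to 19.4% in the clones. SOX10 stood at 682 ± 35.6 TPM in A375 WT and 507 ± 48.3 in WM115 WT (SD, n = 4 each). It fell in clone 1.2 of each line by limma, to 443 TPM in A375 (adjusted p = 0.0135) and 187 in WM115 (adjusted p = 0.0192). Replicate 3 of WM115 clone 1.2 stood apart with SOX10 at 9.56 TPM and MITF at 6.16. Without it SOX10 averaged 275 TPM in that clone and was still called lower (-0.87, adjusted p = 0.0123). Since all WM115 groups share 1 estimate of the spread, that library also widens the error of S100A1 and S100B in the other WM115 comparisons. Their values without it, chosen after the data were seen, are given beside those with it. Of 8 melanocytic markers, 8 averaged at least 1 TPM in WM115 WT and 4 in A375 WT, where TYR was listed at 0 and DCT and MLANA averaged 0.123 and 0.376 TPM. Among markers of other cells, the leukocyte gene PTPRC averaged 0.0325 TPM in A375 WT and 0.0488 in WM115 WT, and the epithelial gene EPCAM averaged 0.101 and 0.125. Both are single genes of longer lists. The 9 keratinocyte and epithelial markers summed to 66.2 to 117 TPM in A375 WT and 40.7 to 58.8 in WM115 WT. The 4 Schwann markers summed to 189 to 225 TPM in A375 WT and 384 to 687 in WM115 WT. In A375 WT the leukocyte list summed to 27.1 to 121 TPM and the fibroblast list to 6.85 to 14.3. The summed leukocyte list in WM115 (232 to 758 TPM over all libraries) was mostly CD68 (398 TPM in WT), and the fibroblast list (374 to 866 TPM) was mostly COL1A2 (545 TPM in WT).

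Stretches of DNA at or before annotated starts of 3 of the genes are shown first. The results below turn on where the transcripts of S100A4 and S100A16 begin, and S100A2 was called in WM115 clones 4.1 and 4.2. They are RefSeq sequence of build GRCh38.p14, minus strand, written 5′ to 3′. S100A16 has an upstream start, an inner start and a further start at 153608322. The stretches end just before the upstream and the inner start, and capitals mark CpG, the site of DNA methylation. For S100A4 the capitals mark TATAAA, 31 bases before the RefSeq start. That stretch lies past the annotated start (153545885) of S100A4-204, the S100A4 transcript of highest mean TPM, and so is not upstream of it. For S100A2 they mark TGACTCA, a match to TGANTCA, the motif of AP-1, 52 bases before the start.
S100A16 upstream start, chr1:153613146-153613387: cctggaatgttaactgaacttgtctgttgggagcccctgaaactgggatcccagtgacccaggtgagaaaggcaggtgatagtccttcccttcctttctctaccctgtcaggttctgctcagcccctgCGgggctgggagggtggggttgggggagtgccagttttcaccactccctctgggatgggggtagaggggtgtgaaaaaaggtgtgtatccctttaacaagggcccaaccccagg
S100A16 inner start, chr1:153609356-153609605: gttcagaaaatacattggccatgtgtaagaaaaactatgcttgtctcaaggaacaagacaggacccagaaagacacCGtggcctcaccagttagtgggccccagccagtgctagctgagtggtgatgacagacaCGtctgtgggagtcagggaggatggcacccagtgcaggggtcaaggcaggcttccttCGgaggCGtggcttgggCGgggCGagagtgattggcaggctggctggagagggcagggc
S100A4 upstream start, chr1:153545817-153545846: tggctggggTATAAAtaggtcagacctctg
S100A2, chr1:153565866-153566094: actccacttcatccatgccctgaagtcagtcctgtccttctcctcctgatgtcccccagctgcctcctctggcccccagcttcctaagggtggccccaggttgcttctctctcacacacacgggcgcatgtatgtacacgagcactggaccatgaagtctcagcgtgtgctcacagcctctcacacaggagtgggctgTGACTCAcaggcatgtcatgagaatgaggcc
The stretch at the S100A16 upstream start holds 1 CpG and that at the inner start 6. Counted over RefSeq windows from 250 bases before to 50 after a start, the upstream window held 3 and the inner window 8, against a median of 14 over 35116 windows. S100A10 and S100A6 stood at the other end with 32 and 31 CpG. On both strands, TGANTCA occurred in 7.71% and TATAAA in 11.5% of those windows. TATAAA was also found in a window of S100A13 and one of S100P. ACAAAG and ACAATG, cores of the motif of SOX proteins, occurred in 16.1% and 10.8% of all windows and in none of the 13 windows of the 9 genes that the table holds. No window of S100B was in the table.

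In unedited cells S100A6 was the most abundant of the 10 genes in both lines. S100A6 (calcyclin, a partner of annexins and of CACYBP) averaged 4224 ± 933 TPM in A375 WT, where it ranked 16 among all genes, and 1891 ± 604 in WM115 WT. In A375 WT the order by mean TPM then ran S100A10 (864), S100A11 (797), S100A1 (626), S100A13 (417), S100A4 (250), S100A16 (168), S100B (63.9), S100A2 (22.9) and S100P (1.63). Neighbours in that order overlapped between libraries, except at the steps from S100A6 to S100A10, from S100A16 to S100B and from S100A2 to S100P. In WM115 WT the order was S100A6, S100A1 (456), S100A11 (437), S100B (326), S100A4 (294), S100A10 (228), S100A13 (92.7), S100A16 (42.0), S100A2 (6.65) and S100P (0.329). Here the steps below S100A6 and those from S100A10 downwards showed no overlap. S100P, a gene first known from placenta, was close to 0 in WM115.

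The lines differed in 7 of the 10 genes by limma, where 47.9% of all 16126 genes tested were called. S100B was lower in A375 WT (77.2, 48.4, 93.2 and 36.9 TPM) than in WM115 WT (405, 297, 259 and 344 TPM), by 2.41 on the log2(TPM + 1) scale (SE 0.28, adjusted p = 9.85e-05). The ranges did not overlap. S100A13 (389, 387, 560 and 331 TPM in A375 and 89.2, 82.5, 114 and 85.2 in WM115) was higher in A375 by 2.14 (SE 0.18, adjusted p = 1.42e-05), again without overlap. S100A13 is a partner in the release of FGF1 from cells. S100A16 (2.09, adjusted p = 2.43e-04), S100A10 (2.01, adjusted p = 1.84e-04) and S100A6 (1.18, adjusted p = 0.00374) were also higher in A375. S100A11 (0.85, adjusted p = 0.0177) was too, but its adjusted p lay between 0.0503 and 0.0543 without A375 WT replicate 1 or 3 or WM115 WT replicate 1 or 4. S100P (0.86, adjusted p = 0.0469) passed the filter on low values only through A375 and lost its call without any 1 WM115 library (adjusted p 0.0694 to 0.110). S100A1, S100A2 and S100A4 were not called between the lines, but S100A2 was higher in A375 without WM115 WT replicate 3 (2.64, adjusted p = 0.0158) or A375 WT replicate 2 (2.47, 0.0281). The mitochondrial share also separates the lines, and with it as a covariate only S100A13 kept its call, where 4.4% of genes were called. These values compare 1 source of each line. Over 33 tested genes outside the 10, within 1 Mb of the S100A6 to S100A1 cluster, the median log2 difference was 0.415 (14 called higher in A375, 2 lower). It was -0.04 over all genes tested. On chromosome 4, which holds S100P, it was 0.50 over 539 genes (248 higher, 62 lower). On chromosome 21, which holds S100B, it was -0.13 over 188 (38 higher, 50 lower). The part of these shifts in the S100 differences was not tested.

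**Figure D1:**
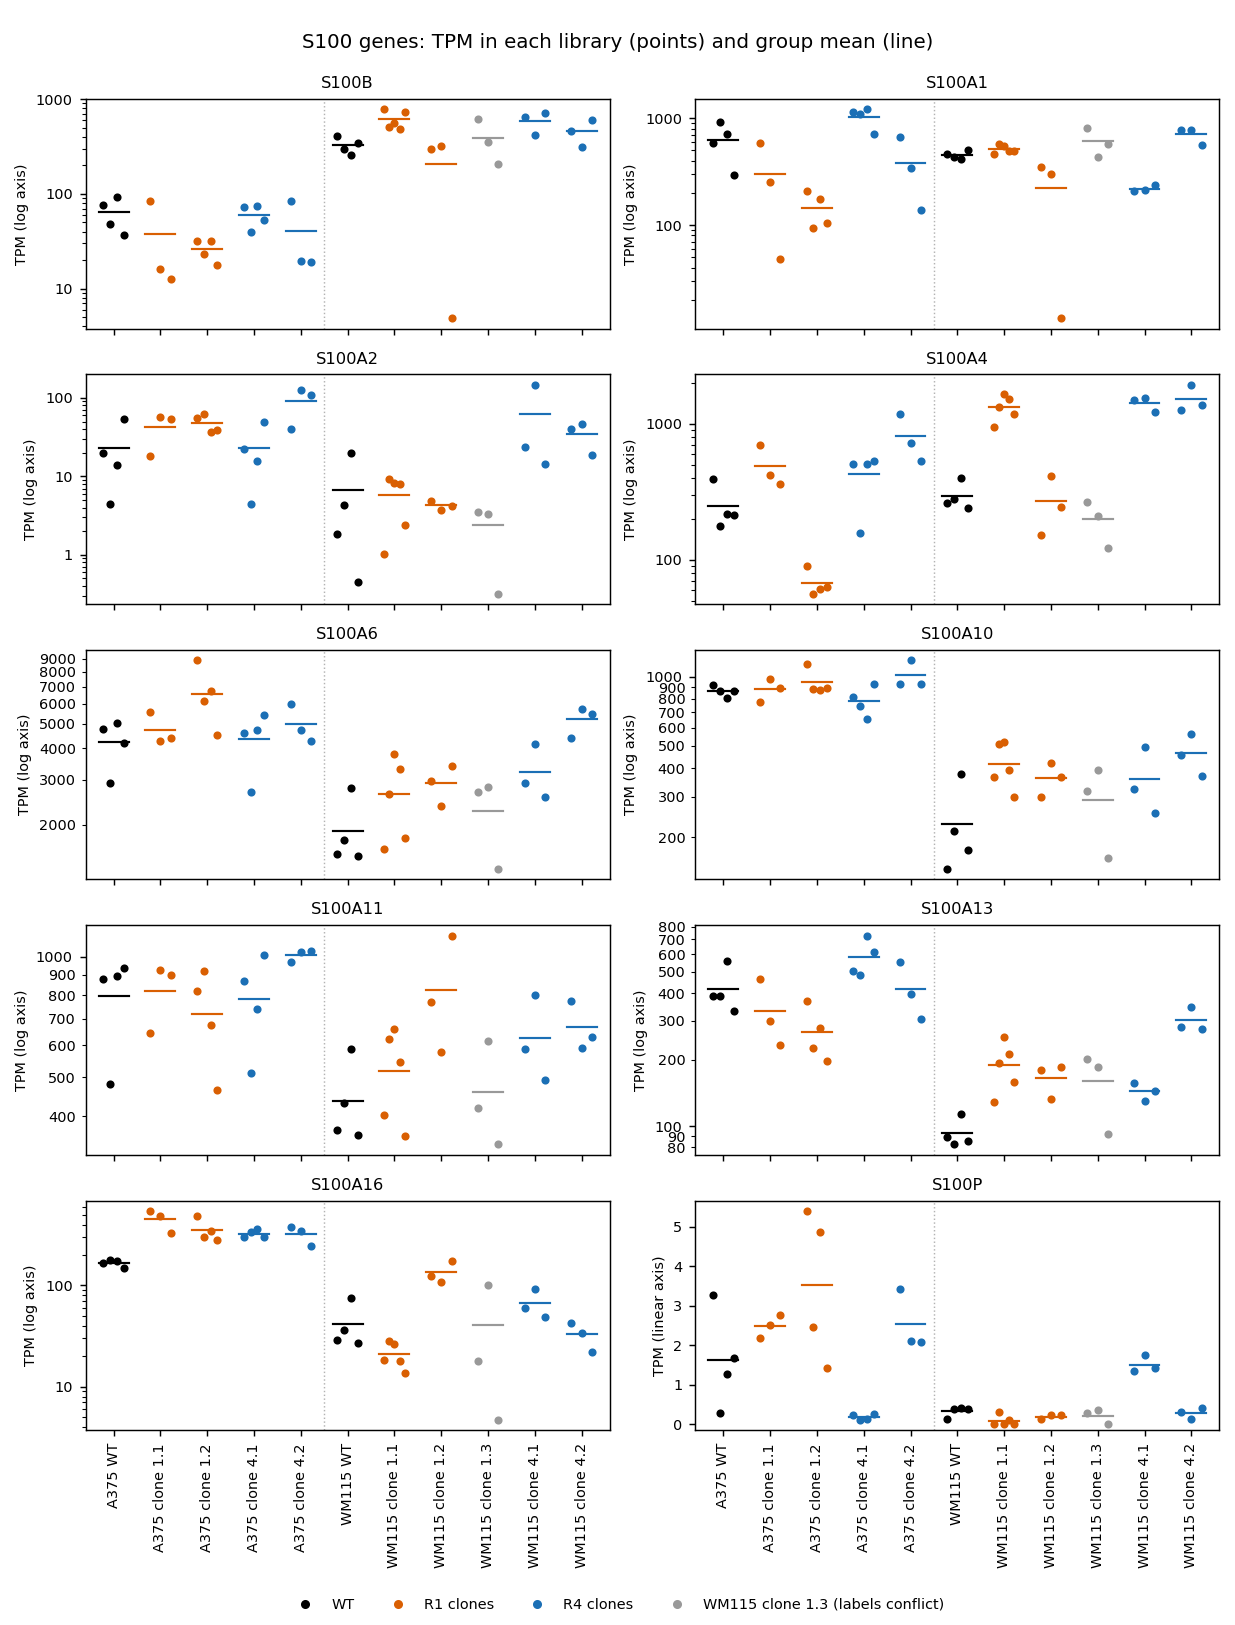
TPM of the 10 S100 genes in each library (points) with the group mean (line), by line and clone, on a log axis except for S100P. S100A16 lay between 247 and 543 TPM in every library of the A375 clones and between 150 and 177 in A375 WT, and S100A4 lay between 948 and 1938 TPM in WM115 clones 1.1, 4.1 and 4.2.

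Against WT of their own line, S100A16 was called higher in every A375 clone and S100A4 in 3 of the 5 WM115 clones. In A375 the test called 1 of 10 in clone 1.1 (1.04% of 16692 genes tested), 3 in clone 1.2 (8.53%), 1 in clone 4.1 (1.31%) and 1 in clone 4.2 (0.557%). In each clone 1 gene rose, S100A16, against 0.3%, 5.44%, 0.515% and 0.138% of all genes. The other calls were the falls of S100A4 and S100A1 in clone 1.2. Replicate numbers pair A375 WT with clone 4.1, and with them as a block 4 of 10 were called there (14.3% of 15250 genes). In WM115 the test called 3 of 10 in clone 1.1 (22% of 16997 genes), 4 in clone 1.2 (22.6%), none in clone 1.3 (1.06%), 3 in clone 4.1 (24.2%) and 5 in clone 4.2 (20.3%). The members that rose numbered 3, 3, 0, 3 and 5, where 6.3%, 11.8%, 0.653%, 8.59% and 6.71% of all genes rose. In WM115 clones 1.1 and 4.1 the count of members called was near the share of all genes. The counts depended on single libraries. Without its replicate 3, clone 1.2 of WM115 called 0 of 10 (5.25% of genes), and without WT replicate 1, 2 or 4 it called 1 (15.1% to 17.2%). Leaving out that same library took clone 1.1 from 3 to 4 calls (24.7%), clone 4.1 from 3 to 5 (27.5%) and clone 4.2 from 5 to 6 (23.8%). Clone 4.1 called 6 without WT replicate 3 (24.8%) and 1 without its own replicate 2 (14.3%). Clone 4.2 called 3 without WT replicate 1 or 4 or its own replicate 1 or 2 (10.6% to 13.9%). In A375, clone 4.2 called 0 without any 1 WT library or its own replicate 1 or 2 (0.331% to 0.619%). Clone 4.1 of A375 called 0 without WT replicate 4 (0.877%) or its own replicate 3 (0.734%) and 2 without WT replicate 2 (1.44%). Members with an unadjusted limma p under 0.05 numbered 3, 8, 2 and 3 in A375 clones 1.1, 1.2, 4.1 and 4.2. They numbered 4, 6, 1, 6 and 6 in WM115 clones 1.1, 1.2, 1.3, 4.1 and 4.2. The share of all genes under that unadjusted threshold was not counted. The median log2 difference of the 10 genes was 0.76 in WM115 clone 4.1 and 0.86 in clone 4.2, beside -0.10 for all genes tested in each. Over 34 tested genes outside the 10, within 1 Mb of the S100A6 to S100A1 cluster, it was 0.11 in clone 4.1 (7 called higher, 6 lower). In clone 4.2 it was 0.08 over those genes (4 higher, 5 lower). Median-of-ratios scaling brought the median of all genes to about 0 and the share of rises among all calls from 28.7%, 35.5% and 33.1% to 53.1%, 56.6% and 52.5% in WM115 clones 1.1, 4.1 and 4.2. Without that scaling, the median log2 difference of the 10 genes was 0.37 and 0.42 in WM115 clones 1.1 and 1.2, beside -0.12 and -0.02 for all genes tested. In the A375 clones it lay between -0.01 and 0.32. The 10 genes together made up 0.377% ± 0.0849 of TPM in WM115 WT (SD, n = 4) and 0.939% ± 0.0913 in WM115 clone 4.2 (SD, n = 3). All 10 genes passed the filter in each line, S100P in WM115 only through clone 4.1, where 2 of the 3 rises are of other members. All clones of a line were set against the same WT libraries.

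Other measures moved with the WM115 clones. The summed TPM of the 8 melanocytic markers was 800 to 2567 in WT, 390 to 504 in clone 4.1, 362 to 548 in clone 4.2, 619 to 1105 in clone 1.1 and 40.7 to 633 in clone 1.2. The share of ribosomal protein genes was 11.1% to 12.8% in WT, 15.7% to 17.3% in clone 1.1, 16.8% to 17.0% in clone 4.1 and 15.1% to 17.4% in clone 4.2. The mitochondrial share was 4.86% to 14.4% in clone 1.1. The part of these shifts in the results on the S100 genes was not tested, apart from the covariate of mitochondrial share.

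**Figure D2:**
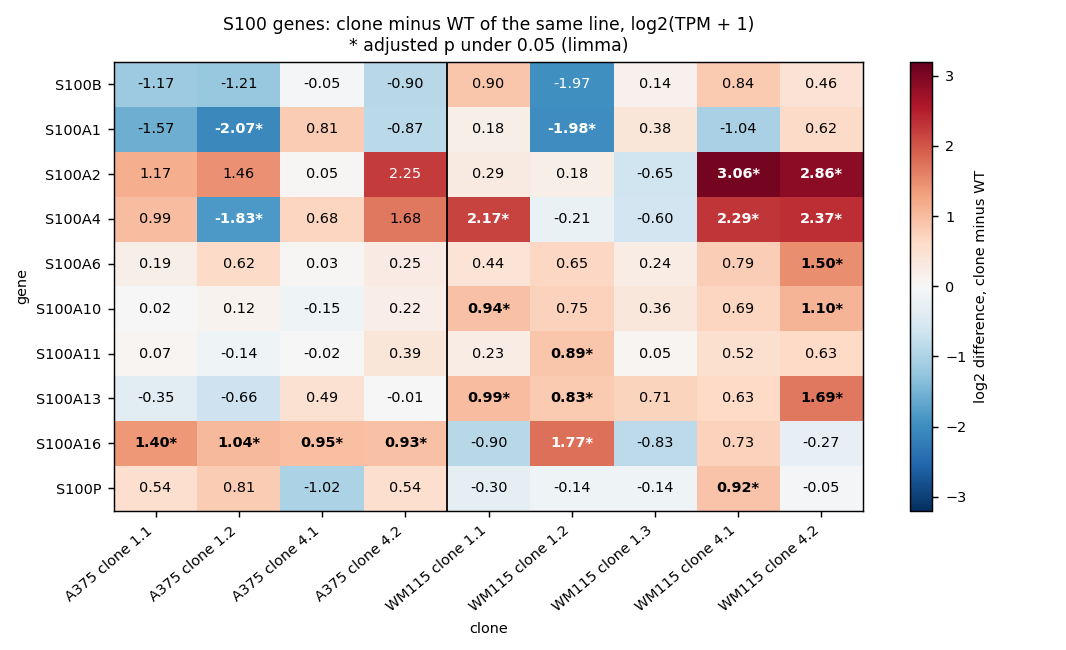
Difference between each clone and WT of its line on the log2(TPM + 1) scale, with red for higher and blue for lower in the clone, and an asterisk and bold type where the limma adjusted p was under 0.05. S100A16 was called in all 4 A375 clones, and S100A4 was called with differences of 2.17 to 2.37 in WM115 clones 1.1, 4.1 and 4.2 and with -1.83 in A375 clone 1.2.

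S100A4 fell in 1 clone and rose in 3, each time with ranges clear of WT. S100A4 (metastasin, ENSG00000196154, chr1:153543613-153550136, minus strand, positions from GENCODE 29) is secreted and also binds the heavy chain of non-muscle myosin IIA, MYH9. In A375 WT it stood at 392, 177, 218 and 212 TPM. In A375 clone 1.2 it stood at 89.9, 56.4, 61.3 and 62.6 TPM, all below the lowest WT library. The fall was 1.83 on the log2 scale (a log2 difference of -1.83, SE 0.37, limma adjusted p = 0.00475), and the call held under every alternative run. The other R1 clone of A375 did not share it, with 697, 419 and 363 TPM in clone 1.1 (0.99, adjusted p = 0.382). The direct test between clones 1.1 and 1.2 gave 2.81 (SE 0.40, adjusted p = 1.88e-04), the 1 member called among 10 where 13.2% of all genes were. Over 32 tested genes outside the 10, within 1 Mb of the S100A6 to S100A1 cluster, the median there was -0.33 (3 called higher, 11 lower). The part of that shift was not tested. In A375 clone 4.2 the levels of 1184, 717 and 529 TPM were all above WT, with 1.68 and an adjusted p of 0.0942.

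In WM115 WT, S100A4 stood at 260, 280, 396 and 240 TPM. It rose in clone 1.1 to between 948 and 1660 TPM with a median of 1321 (2.17, SE 0.26, adjusted p = 1.65e-05). It rose in clone 4.1 to 1500, 1543 and 1222 TPM (2.29, SE 0.30, adjusted p = 4.32e-05) and in clone 4.2 to 1264, 1938 and 1380 TPM (2.37, SE 0.30, adjusted p = 5.01e-05), by limma. All 11 libraries of those clones were above every WT library, and the 3 calls held under every alternative run, the mitochondrial share as a covariate included. Clone 1.2 (152, 414 and 246 TPM) and clone 1.3 (267, 210 and 122 TPM) overlapped WT. The 2 R1 clones of WM115 thus differed, by 2.38 (SE 0.28, adjusted p = 9.91e-06). In both lines clone 1.2 was the R1 clone with less S100A4, but these are separate clones that share a number in name only.

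The change in S100A4 was uneven between its annotated starts. Transcript TPM were summed by start, a step added after the gene values were seen. A further annotated start of S100A4, at 153550136, lies before the one called upstream here. Transcripts that begin at the upstream start (153545802 to 153545885, a range that spans the TATAAA above) made up 81.1% to 92.7% of S100A4 in A375 WT and 22.7% to 41.7% in A375 clone 1.2. Their sum fell from 363, 157, 177 and 186 TPM to 37.5, 17.3, 20.3 and 14.2 TPM (-3.26, SE 0.42, limma adjusted p = 1.83e-04), where 3.43% of 32490 starts tested were called. Transcripts from the inner start (153545063 to 153545097) stood at 28.8, 19.998, 41.2 and 25.6 TPM in WT and 52.4, 39.1, 41.0 and 48.4 in clone 1.2 (0.67, adjusted p = 0.159). The difference between the starts was itself tested over 7916 genes with at least 2 starts. It moved by -3.93 (SE 0.35, limma adjusted p = 2.46e-05) in a comparison in which 0.430% of genes were called, and leaving out any 1 library gave -4.18 to -3.67. In WM115 the upstream sum rose by 2.33 in clone 1.1 (adjusted p = 4.04e-05), 2.44 in clone 4.1 (1.00e-04) and 2.49 in clone 4.2 (1.50e-04), where 9.54%, 11.4% and 8.94% of 34003 starts were called. The inner sum gave -0.23 (adjusted p = 0.586), -0.14 (0.789) and 1.12 (0.0186). The last was 60.6, 100 and 80.5 TPM against 26.3 to 55.0 in WT, and it lost its call without WT replicate 1 or 4 or clone 4.2 replicate 2 or 3 (adjusted p 0.0502 to 0.104). The difference between starts was called in clone 1.1 (2.56, adjusted p = 1.06e-04; 0.598% of genes) and clone 4.1 (2.59, 4.61e-04; 0.708%), and missed the threshold in clone 4.2 (1.37, 0.0686; 0.464%). Transcripts of a gene share exons, so these sums are estimates of the quantification tool and not direct counts of reads at a start.

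S100A16 was the gene that rose in every A375 clone. S100A16 (ENSG00000188643, chr1:153606886-153613145, minus strand) is a widely expressed member with reduced calcium binding. A375 WT libraries held 168, 177, 175 and 150 TPM. Clone 1.1 held 543, 481 and 331 TPM (1.40, SE 0.20, adjusted p = 0.00128) and clone 1.2 held 486, 301, 347 and 281 (1.04, SE 0.19, adjusted p = 0.00163), by limma. Clone 4.1 held 300, 338, 362 and 303 TPM (0.95, SE 0.19, adjusted p = 0.0141) and clone 4.2 held 378, 348 and 247 (0.93, SE 0.20, adjusted p = 0.0465). The lowest clone library was above the highest WT library in all 4 comparisons. The call in clone 4.1 was lost without WT replicate 4 (adjusted p = 0.0508) or clone 4.1 replicate 3 (0.0563), but the replicate numbers pair WT and clone 4.1 and with them as a block the adjusted p was 2.69e-04. The call in clone 4.2 was lost without any 1 WT library or without clone 4.2 replicate 1 or 2 (adjusted p 0.083 to 0.305), and under median-of-ratios scaling (0.159).

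In WM115 the level of S100A16 differed from clone to clone. WT stood at 29.1, 36.7, 75.2 and 26.9 TPM. Clone 1.2 stood higher at 123, 109 and 176 TPM (1.77, SE 0.61, adjusted p = 0.0445), a call lost without its replicate 3 (1.57, adjusted p = 0.194), its replicate 1 or 2 (0.0696 and 0.0586) or WT replicate 1, 2 or 4 (0.0850 to 0.0986), and with the mitochondrial share as a covariate (1.22, 0.110). That share was 8.75% to 11.8% in clone 1.2 and 13.7% to 15.6% in WT. Clone 1.1 held 18.3, 28.1, 26.6, 17.9 and 13.6 TPM (-0.90, adjusted p = 0.246). The 2 R1 clones differed by -2.66 (clone 1.1 minus clone 1.2, SE 0.59, limma adjusted p = 0.00198), which held under every alternative run.

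Starts were summed for S100A16 as well. In A375 the upstream start (153613083 to 153613145) rose in all 4 clones, from 112, 106, 135 and 110 TPM in WT to 459, 418 and 290 in clone 1.1. It ran from 192 to 347 TPM in clone 1.2, from 227 to 284 in clone 4.1 and from 204 to 306 in clone 4.2, all above WT. The log2 differences were 1.72 (adjusted p = 3.82e-04) in clone 1.1, 1.14 (0.00192) in clone 1.2, 1.1 (0.0130) in clone 4.1 and 1.19 (0.0188) in clone 4.2, by limma, where 0.345%, 3.43%, 0.308% and 0.169% of starts were called. In clone 4.1 the call was lost without WT replicate 1 (0.0534) or clone 4.1 replicate 3 (0.0653). In clone 4.2 it was lost without WT replicate 1, 2 or 4 or clone 4.2 replicate 1 or 2 (0.0516 to 0.146) and under median-of-ratios scaling (0.126). Transcripts from the inner start (153609337 to 153609344) overlapped WT in every A375 clone, with adjusted p from 0.112 to 0.888. The further start at 153608322 gave log2 differences of 0.47, -0.91, -0.05 and 0.13 in clones 1.1, 1.2, 4.1 and 4.2, none called. The difference between starts was not called in any A375 clone, with a lowest adjusted p of 0.337 in clone 1.1.

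In WM115 clone 1.1 the upstream start of S100A16 fell to near 0. It gave 0.361, 1.303, 2.499, 0.769 and 0.105 TPM, against 18.6, 21.1, 53.7 and 21.2 in WT (-3.86, SE 0.76, limma adjusted p = 0.00371, held under every alternative run). The inner start gave 17.9, 24.97, 24.1, 12.7 and 13.5 TPM in the same libraries, against 10.6, 15.6, 21.5 and 5.72 in WT (0.54, adjusted p = 0.438). The upstream share of the gene was 57.4% to 78.7% in WT and 0.773% to 9.39% in clone 1.1. The difference between starts moved by -4.40 (SE 0.63, limma adjusted p = 0.00193; -4.61 to -4.17 without any 1 library). At the level of the whole gene this clone was not called in the fit of all groups (-0.90), but it was with the mitochondrial share as a covariate (-1.71, limma adjusted p = 0.0365) and with only the 2 groups fitted (-0.90, 0.0453). Clone 4.2 gave 11.3, 11.7 and 6.70 TPM at the upstream start, below all WT libraries, with an adjusted p of 0.368. Clone 1.3 was split, with 1.18 and 0.682 TPM in replicates 1 and 3 and 80.3 in replicate 2. That library decided its call: with it the difference was -2.01 and not called, and without it -3.81 (limma adjusted p = 1.86e-04). The upstream stretch printed above holds 1 CpG and the RefSeq window of that start 3. A part of DNA methylation in this fall was not tested.

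**Figure D3:**
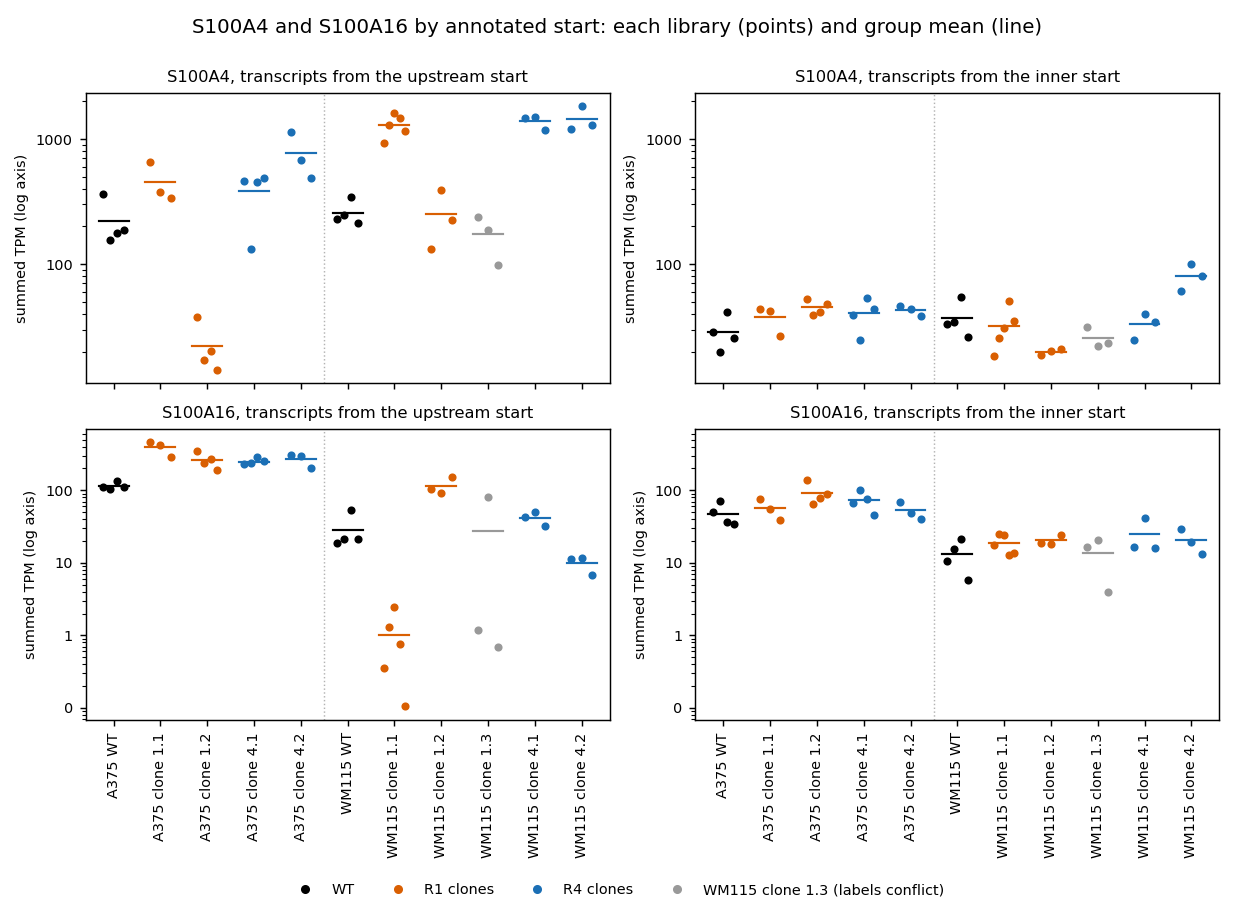
TPM summed over transcripts that begin at the upstream start (left) and the inner start (right) of S100A4 and S100A16, by library (points) with the group mean (line), on log axes that are the same within a gene. The upstream start of S100A4 lay at 14.2 to 37.5 TPM in A375 clone 1.2 and that of S100A16 at 0.105 to 2.499 TPM in WM115 clone 1.1, while the inner starts of the same libraries overlapped or exceeded WT.

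S100A1 was called lower in clone 1.2 of each line, and the calls of S100A1 and S100B in the other WM115 clones turned on replicate 3 of clone 1.2. S100B is expressed in melanocytes and glia. S100A1 (ENSG00000160678, chr1:153627926-153632039, plus strand) is best known from heart and skeletal muscle. In A375 it stood at 589, 914, 707 and 294 TPM in WT and at 207, 93.7, 175 and 104 in clone 1.2, without overlap (-2.07, SE 0.60, limma adjusted p = 0.0414). The call was lost without any 1 of 7 of the 8 libraries (WT replicates 1, 2 and 3 and clone 1.2 replicates 1 to 4, adjusted p 0.0536 to 0.124) and with no filter on low values (0.0859) or a filter on a mean TPM of 5 (0.052). Clone 1.1 gave 592, 253 and 48.5 TPM and clone 4.2 gave 664, 344 and 139, each spread over WT and below it. Clone 4.1 gave 1139, 1092, 1214 and 709 TPM (0.81, adjusted p = 0.769). With the replicate number as a block, the 4.1 comparison called S100A1 (adjusted p = 0.00931), S100A13 (0.49, 0.0177) and S100P (-1.02, 0.0351) besides S100A16, where 14.3% of all genes were called.

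S100B in A375 was 83.3, 16.1 and 12.7 TPM in clone 1.1, and 31.7, 23.3, 31.7 and 17.6 in clone 1.2, the latter all below WT (-1.21, adjusted p = 0.191). It was 72.5, 39.5, 74.4 and 52.8 TPM in clone 4.1 and 84.2, 19.5 and 19.0 in clone 4.2. None of these was called in the fit of all groups. With only WT and clone 1.2 fitted, the same difference of -1.21 had a limma adjusted p of 0.0402. In WM115, S100B stood above every WT library in clone 1.1 (between 485 and 780 TPM, median 563) and in clone 4.1 (653, 418 and 706 TPM), with log2 differences of 0.90 (adjusted p = 0.429) and 0.84 (0.519). Without replicate 3 of clone 1.2, the same differences were called, with limma adjusted p of 0.0199 and 0.0464, and with only the 2 groups fitted they were 0.00419 and 0.0184. Clone 4.2 (460, 311 and 603 TPM) and clone 1.3 (620, 351 and 206 TPM) overlapped WT. In clone 1.2, S100B was 295, 319 and 4.87 TPM (-1.97, adjusted p = 0.111), so the mean rested on 1 library. Without that library the difference was -0.07 (adjusted p = 0.931), and without replicate 1 or 2 it was called (-2.90, 0.0286, and -2.95, 0.0239).

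The same library set the S100A1 result of WM115 clone 1.2. S100A1 was 350, 303 and 13.4 TPM there, against 467, 435, 419 and 501 in WT (-1.98, SE 0.67, limma adjusted p = 0.0401). Without replicate 3 the difference was -0.48 (adjusted p = 0.133), and the call was also lost without any 1 WT library (0.0567 to 0.0743). WM115 clone 1.1 exceeded clone 1.2 by 2.87 in S100B (adjusted p = 0.0125) and 2.16 in S100A1 (0.0137). Without that library these differences were 0.97 (adjusted p = 0.0492) and 0.66 (0.0161). S100A1 was 210, 215 and 235 TPM in WM115 clone 4.1, below all WT libraries (-1.04), and 775, 778 and 564 in clone 4.2, above them all (0.62). The 2 R4 clones thus lay on either side of WT and differed from each other by -1.66. With all WM115 libraries the limma adjusted p of these 3 differences were 0.270, 0.541 and 0.184. Without replicate 3 of clone 1.2 they were 2.41e-04, 0.0117 and 8.39e-06, and with only the 2 groups fitted 3.94e-04, 0.0184 and 6.65e-04. S100A1 and S100A13 overlap on opposite strands by 3435 bases, and the library protocol in the labels marks no strand, so their reads cannot be told apart there.

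Across the 18 A375 libraries, log2(TPM + 1) of SOX10 ran with that of S100A1 (Pearson r = 0.95), S100A13 (0.82) and S100B (0.81). After the mean of each group was removed, r was 0.87 for S100A1, 0.58 for S100A13 and 0.79 for S100B. In the 21 WM115 libraries r was 0.89 for S100A1 and 0.91 for S100B, but 0.26 and 0.10 over the 20 libraries without clone 1.2 replicate 3. The WM115 relation of S100A1 and S100B to SOX10 therefore rested on that library. For S100A13 r with SOX10 was -0.18 in WM115, or -0.39 without that library. Between S100A1 and S100A13, which overlap on the genome, r was 0.89 in A375 and 0.11 in WM115. These are descriptions: libraries of a clone share that clone, and TPM within a library share its total. MITF, a master regulator of pigment cells, ran against most members in WM115. With all WM115 libraries r ran from -0.79 for S100A11 and -0.78 for S100A6 to -0.49 for S100A4. Only S100B (0.28) and S100A1 (0.51) were positive. Without clone 1.2 replicate 3 it was -0.88 for S100A2, -0.80 for S100A6, -0.74 for S100A11 and -0.32 for S100B. In A375 r with MITF was -0.72 for S100A16 (-0.38 with group means removed), -0.24 for S100A11, -0.10 for S100A6 and 0.14 for S100A13. MITF averaged 128 TPM in WM115 WT, 10.5 in clone 4.1 and 16.5 in clone 4.2. With the mean of each group removed, r with MITF in WM115 was -0.84 for S100A11, -0.67 for S100A6 and -0.49 for S100A2. Over the same WM115 libraries S100A6 and S100A13 had r = 0.85, and in A375 -0.05.

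**Figure D4:**
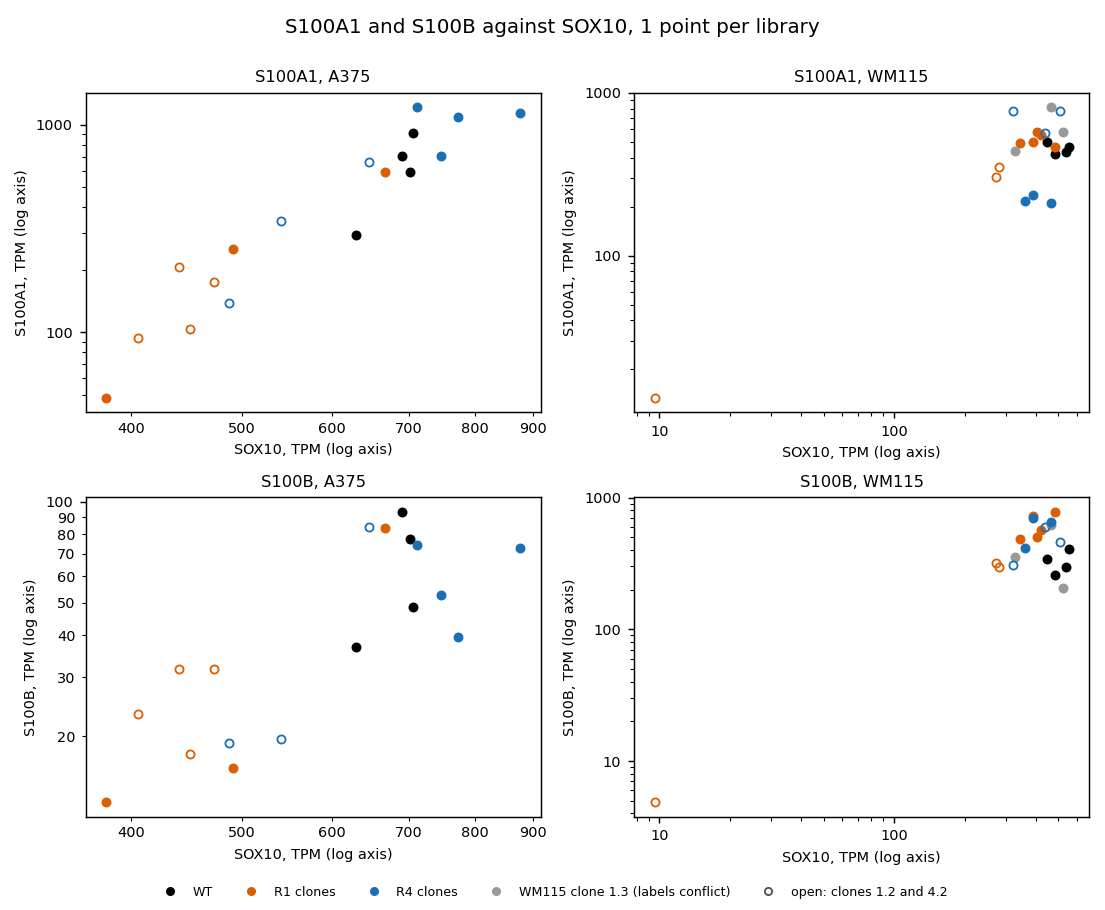
S100A1 (top) and S100B (bottom) against SOX10 in TPM, 1 point per library, in A375 (left) and WM115 (right), on log axes. In A375 the libraries with SOX10 below 500 TPM had S100A1 between 48.5 and 253 TPM, and in WM115 the single library with SOX10 at 9.56 TPM lay far from the other 20.

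S100A2 was called higher in both R4 clones of WM115. S100A2 is a nuclear S100 protein known from basal epithelial cells and as a partner of p53. It stood at 1.83, 4.34, 19.99 and 0.448 TPM in WM115 WT. It was 23.9, 147 and 14.6 TPM in clone 4.1 (3.06, SE 0.82, limma adjusted p = 0.0121) and 40.03, 45.8 and 18.6 in clone 4.2 (2.86, SE 0.82, adjusted p = 0.0199). Both clones overlapped WT through WT replicate 3. The call in clone 4.1 was lost without its replicate 2 (2.09, adjusted p = 0.0947), and that in clone 4.2 without WT replicate 1 or 4 or clone 4.2 replicate 1 or 2 (0.0574 to 0.0844). With the mitochondrial share as a covariate neither was called (2.18, adjusted p = 0.124, and 2.23, 0.0855). That share was 5.24% to 10.8% in clone 4.1, 4.71% to 12.7% in clone 4.2 and 13.7% to 15.6% in WT. The sum of the 9 keratinocyte and epithelial markers was 62.5 to 89.2 TPM in clone 4.1 and 62.5 to 81.3 in clone 4.2, above the 40.7 to 58.8 of WT. Of the 9, 3 averaged at least 1 TPM in each clone and 1 in WT, KRT10 made up most of the sum (61.2, 69.9 and 47.6 TPM in the mean), and KRT5 was listed at 0 in all 3 groups. The part of these markers in the S100A2 result was not tested. Clones 1.1 (1.04 to 9.15 TPM), 1.2 (3.68 to 4.88) and 1.3 (0.321 to 3.51) lay within the WT range or at its lower end. In A375, S100A2 reached 39.8, 126 and 109 TPM in clone 4.2 against 20.1, 4.48, 13.9 and 53.2 in WT (2.25, adjusted p = 0.370).

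S100A6, S100A10, S100A11 and S100A13 were called in no A375 clone by the unblocked test, and the log2 differences lay between -0.66 and 0.62. S100A13 still averaged 266 TPM in A375 clone 1.2 and 582 in clone 4.1, on either side of the 417 of WT. In WM115 most of their clone means were above WT. S100A6 rose in clone 4.2 to 4408, 5720 and 5467 TPM from 1538, 1742, 2784 and 1502 in WT (1.497, SE 0.31, limma adjusted p = 0.00316), a call that held under every alternative run. Clone 4.1, at 2924, 4173 and 2571 TPM, gave 0.79 with an adjusted p of 0.0743, and was called without WT replicate 3 (0.99, 0.0296) and under median-of-ratios scaling (0.92, 0.0446).

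S100A13 was the member called most often in WM115 beside S100A4. WT stood at 89.2, 82.5, 114 and 85.2 TPM. It rose in clone 4.2 to 281, 347 and 276 TPM (1.69, SE 0.24, limma adjusted p = 1.54e-04) and in clone 1.1 to between 128 and 253 with a median of 192 (0.99, SE 0.21, adjusted p = 0.00283). Both calls held without any 1 library and with the mitochondrial share as a covariate. In clone 1.2, at 180, 132 and 185 TPM (0.83, adjusted p = 0.0205), the call was lost without WT replicate 2 (0.0531) or clone 1.2 replicate 1 (0.0539) or 3 (0.74, 0.116). Clone 4.1 stood at 157, 130 and 144 TPM, above all WT libraries (0.63, adjusted p = 0.0613), and was called without WT replicate 3 (0.73, 0.0425) and under median-of-ratios scaling (0.77, 0.0309). Clone 1.3, at 202, 185 and 92.1 TPM, was called only without its replicate 3 (1.06, 0.00957). The 2 R4 clones differed in S100A13 by -1.06 (clone 4.1 minus clone 4.2, SE 0.26, adjusted p = 0.0162), a call lost without clone 4.1 replicate 2 or 3 or clone 4.2 replicate 2 (0.0513 to 0.0826).

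S100A10 (p11) binds no calcium and forms a complex with annexin A2 that captures plasminogen activator at the cell surface. It stood at 145, 212, 378 and 175 TPM in WM115 WT. Clone 1.1 ran from 298 to 522 TPM with a median of 391 (0.94, SE 0.28, limma adjusted p = 0.0236), and clone 4.2 stood at 456, 564 and 370 (1.097, SE 0.32, adjusted p = 0.0222). Both overlapped WT replicate 3. In clone 1.1 the call was lost without WT replicate 1, 2 or 4 or clone 1.1 replicate 2 or 3 (0.0543 to 0.0972), and in clone 4.2 without WT replicate 1 or 4 or clone 4.2 replicate 1 or 2 (0.0595 to 0.106). With the mitochondrial share as a covariate the differences were 0.55 (adjusted p = 0.211) and 0.77 (0.0985). Across the WM115 libraries r between log2 mitochondrial share and log2(TPM + 1) was -0.67 for S100A10.

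S100A11, a partner of annexin A1 in keratinocytes, rose in WM115 clone 1.2 to 770, 577 and 1128 TPM from 369, 431, 587 and 359 (0.89, SE 0.27, limma adjusted p = 0.0235). The highest value came from replicate 3. Without it the difference was 0.64 (adjusted p = 0.184), and the call was also lost without WT replicate 1 (0.0596) or 4 (0.0590) and with the mitochondrial share as a covariate (0.68, 0.0531).

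S100P was low everywhere. In A375 it was 3.27, 0.277, 1.27 and 1.69 TPM in WT, 0.248, 0.113, 0.131 and 0.252 in clone 4.1 and 3.43, 2.11 and 2.09 in clone 4.2. The 2 R4 clones did not overlap and differed by -1.56 (clone 4.1 minus clone 4.2, SE 0.35, limma adjusted p = 0.0195), the 1 member called where 3.95% of genes were. The call was lost without clone 4.1 replicate 2 or 3 or clone 4.2 replicate 2 or 3 (0.0545 to 0.0721). In WM115 it was 1.36, 1.76 and 1.42 TPM in clone 4.1 and at most 0.412 in all other libraries. S100P was tested in WM115 only because clone 4.1 brought it past the filter, so its call there (0.92, adjusted p = 5.27e-04) supports nothing.

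Clones of the same deletion were also compared as sets. Between R1 clones 1.1 and 1.2 of WM115, 4 of 10 members were called (35.5% of genes), S100B, S100A1 and S100A4 higher and S100A16 lower in clone 1.1. Between R4 clones 4.1 and 4.2 of WM115, 2 were called (6.75%), S100P and S100A13, and S100A1 too without replicate 3 of clone 1.2 (8.96%). S100P passed the filter in WM115 only through clone 4.1, so its call supports nothing here either. Apart from it, S100A13 was the only member called with all libraries. Comparing the deletions with the clone as the unit, R1 against R4, called none of the 10 in A375 (0% of 15287 genes) and none in WM115 (0.0262%). The difference between the lines in that contrast was called for none either (0%). limma gave 0, 1 and 1 members an unadjusted p under 0.05 in these fits. The 1 in WM115 was S100A2, lower in R1 than in R4 clones by 2.72 (a log2 difference of -2.72, SE 0.60, limma adjusted p = 0.478). It was also the 1 in the contrast of the lines (2.89, SE 0.85, limma adjusted p = 0.9997). These fits rest on 2 clones of each deletion in each line and have 4 residual degrees of freedom.

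Of 10 other S100 genes in the table, 2 were tested in A375 and 5 in WM115. S100A3, a neighbour of S100A4 known from hair cuticle, rose in A375 clone 1.1 from a mean of 16.6 to 92.6 TPM (2.49, SE 0.45, limma adjusted p = 0.00872). It rose in WM115 clones 4.1 and 4.2 from 14.5 to 38.7 and 39.5 TPM (adjusted p = 0.0498 and 0.0444). S100A9, a subunit of calprotectin, rose in WM115 clone 4.1 from 1.71 to 13.5 TPM (2.36, adjusted p = 4.54e-04). S100A5 and S100A7 were called in 1 WM115 clone each, from WT means of 0.711 and 0.207 TPM, and passed the filter mainly through that clone. S100A3 lies within a long S100A4 transcript on the same strand, which was listed at no more than 0.285 TPM in any library.

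Of 24 genes for partners and receptors of S100 proteins, 23 were tested. In A375 clone 1.2, where S100A4 fell, 5 rose and none fell, beside 5.44% of all genes that rose. They were ALCAM (1.61, limma adjusted p = 2.20e-05), ANXA6 (1.23), AHNAK (1.16), MYH9 (1.15, adjusted p = 0.00870) and IQGAP1 (0.61). MYH9, the myosin that S100A4 binds, went from 94.1 to 200.1 TPM in the mean, and ANXA6 from 61.0 to 142. Clones 1.1 and 4.2 of A375 called none and clone 4.1 called IQGAP1 (0.71, adjusted p = 0.0478). In WM115 the partners called were 6 of 23 in clone 4.2 (20.3% of all genes), 4 in clone 4.1 (24.2%), 3 in clone 1.1 (22%) and 4 in clone 1.2 (22.6%). In clone 4.2, PLAT (tissue plasminogen activator, 67.5 to 212 TPM) and the receptor TLR4 (12.6 to 28.3 TPM) rose, and ANXA5, ANXA6, STK38 and CAPN1 fell. In WM115 clone 4.1, TLR4 and MDM2 rose and ANXA5 and STK38 fell. In WM115 clone 1.1, PLAT and CACYBP rose and CAPN1 fell. In WM115 clone 1.2 none rose, and ANXA5, SUGT1, MDM2 and PPP5C fell, of which MDM2 was called without replicate 3 (-0.72, limma adjusted p = 0.0164; 5.25% of genes). Clone 1.3 called none.

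Some genes tracked the members across all 39 libraries after the mean of each line was removed. Closest to S100B were GAS7 (Pearson r = 0.89), TNFRSF19 (0.89) and ERBB3 (0.88), or 0.64, 0.68 and 0.74 over the 38 libraries without WM115 clone 1.2 replicate 3. Closest to S100A4, the member with the widest range of group means in A375 (3.51 on the log2 scale), were FLT1 (0.80), CHST2 (0.80) and EMP2 (0.78). Closest to S100A2, the widest in WM115 (3.71), were PPP1R14B-AS1 (0.91), ROBO4 (0.86) and CAVIN3 (0.86). The libraries are not independent, since those of a clone share it.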

How the data were processed

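The authors deposited gene-level and transcript-level TPM for 39 libraries. GRCh38 and DRAGEN are named in the submitters' processing notes. The annotation release is not given in the sources used here. Each table also held 6 columns that match no sample and were not used, and 200 repeated gene lines were read once. The 10 members, the 10 other S100 genes and the 24 partners were chosen with earlier results of these data known. Genes named were these lists, SOX10 and MITF, and the 3 genes most like S100B and the member of widest range in each line.

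Each line was fitted on its own with limma 3.58.1 in R 4.3.3 on log2(TPM + 1), with 1 coefficient per group and a variance trend. A gene was tested in a line where 3 or more of its libraries reached 1 TPM. Tests were two-sided, with Benjamini-Hochberg adjustment over all genes tested and calls at an adjusted p under 0.05. Fold changes on this scale understate those of low genes. The fits were tested on simulated data. For the fits by start the simulated libraries were independent of each other. That test therefore cannot show that p-values hold for libraries that repeat 1 clone. Replicate numbers paired A375 WT with clone 4.1 (r of paired deviations 0.33 to 0.78 over 4 pairs), and of the other pairs of groups only A375 clones 1.1 and 4.2, which are not compared (0.43 to 0.74 over 3). Sums by start used GENCODE 29 transcript starts within 200 bases of each other. The alternatives changed the pseudocount to 0.1, filtered on an average of 5 TPM or not at all, rescaled by median-of-ratios, asked for a log2 difference of 1, or added the mitochondrial share as a covariate. Others fitted only the 2 groups, with or without a replicate block, and left out each library in turn. WM115 comparisons without clone 1.2 were also fitted without its replicate 3, an alternative chosen after seeing the data.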

Additional observations from a re-analysis of the deposited data

Results flagged for a closer look

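In groups of 4 or 5 libraries, 4 of 50 sets of values had 1 library far from the rest by Dixon's criterion, which chance gives in about 1 in 20 sets. They were S100A4 in A375 clone 4.1 replicate 2 (156.1 TPM), S100A10 in A375 clone 1.2 replicate 1 (1137 TPM), S100A11 in A375 WT replicate 2 (480.4 TPM) and S100P in WM115 WT replicate 1 (0.133 TPM).

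Clones of the same deletion differed by a direct limma test in 8 cases, with log2 differences given as the first clone minus the second. In A375, S100A4 differed by 2.81 between clones 1.1 and 1.2 and S100P by -1.56 between clones 4.1 and 4.2. In WM115, clones 1.1 and 1.2 differed in S100B (2.87), S100A1 (2.16), S100A4 (2.38) and S100A16 (-2.66). WM115 clones 4.1 and 4.2 differed in S100A13 (-1.06) and S100P (0.97). Of these, S100P in WM115 was tested only because clone 4.1 passed the filter, and S100B and S100A1 rested largely on replicate 3 of clone 1.2.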

How the results depend on the processing

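Of 255 recomputed counts of members called, 193 stayed within 1.5 times the reported count, and of 1757 recomputed differences 1571 kept their direction and side of the threshold. Below, the share of all genes called under the same setting is in brackets. Against WT, the block on replicate number gave 0 calls in A375 clone 1.1 (0.00665%), 4 in 4.1 (14.3%) and 0 in 4.2 (0.0993%). The same block gave 7 in WM115 clone 1.1 (33.7%) and 0 in 1.2 (0.807%). Between clones it gave 2 for WM115 1.1 against 1.2 (7.06%) and 5 for 4.1 against 4.2 (9.86%). It moved the count of all genes called from 219 to 2183 in A375 clone 4.1, the 1 comparison made whose numbers pair, and from 3839 to 127 in WM115 clone 1.2; leaving out replicate 3 of that clone took the latter to 882. Fitting only the 2 groups gave 0 in A375 clone 4.2 (0.265%). In WM115 it gave 5 in clone 1.1 (29.3%), 2 in 1.2 (9.95%), 7 in 4.1 (30.2%) and 2 in 1.1 against 1.2 (29.8%). A minimum difference of 1 gave 0 in A375 clones 4.1 (0.653%) and 4.2 (0.473%). In WM115 it gave 1 in clone 1.1 (4.88%), 2 in 1.2 (7.61%) and 1 in 4.1 against 4.2 (2.63%). The pseudocount of 0.1 gave 2 in A375 clone 4.1 (1.46%) and 1 in WM115 4.1 against 4.2 (6.35%). A mean TPM of 5 gave 0 in A375 clone 4.2 (0.327%) and in A375 4.1 against 4.2 (3.7%), and 1 in WM115 4.1 against 4.2 (6.59%). No filter gave 0 in those 2 A375 comparisons (0.274% and 1.17%), 2 in WM115 clone 1.2 (9.85%) and 3 in clone 4.2 (7.77%). Median-of-ratios scaling gave 0 in A375 clone 4.2 (0.551%) and 5 in WM115 clone 4.1 (23.1%). It raised the share of higher calls from 28.7% to 53.1%, 35.5% to 56.6% and 33.1% to 52.5% in WM115 clones 1.1, 4.1 and 4.2, and lowered it from 63.8% to 53.7% in A375 clone 1.2. The mitochondrial share gave 0 in A375 clone 4.2 (0.545%), 2 in WM115 clone 1.2 (22.4%) and 3 in 4.2 (14.2%). It gave 1 between the lines (4.4%), where all calls went from 7732 to 710. The cause was not tested.

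Leaving out 1 library gave 1 to 1, 2 to 3, 0 to 2 and 0 to 1 calls in A375 clones 1.1, 1.2, 4.1 and 4.2, and 2 to 4, 0 to 4, 0 to 1, 1 to 6 and 3 to 6 in WM115 clones 1.1, 1.2, 1.3, 4.1 and 4.2. The share of all genes called was 0.397% to 1.6%, 5.26% to 9.62%, 0.679% to 1.44% and 0.307% to 0.619% in those A375 clones. In those WM115 clones it was 14.5% to 24.7%, 5.25% to 24.1%, 0.519% to 4.82%, 13.9% to 27.5% and 10.6% to 23.8%. Between clones, leaving out 1 library gave 1 to 1 and 0 to 2 in A375 and 4 to 5 and 0 to 3 in WM115. Between the lines it gave 5 to 8. The share of all genes called there was 6.16% to 16.2% and 0.933% to 6.35% in A375. It was 18.9% to 35.6% and 3.1% to 8.96% in WM115, and 39.7% to 55.6% between the lines. The fits over clones stayed at 0 to 0 without any 1 clone. These uncalled differences changed sign: in WM115 clone 1.3 S100A2 (-1.21 to 0.079 over libraries left out, the last without WT replicate 3) and S100A16 (-1.93 to 0.15, the last without clone 1.3 replicate 3), S100A16 in WM115 clone 4.1 (-0.25 with the mitochondrial share), S100A1 in A375 1.1 against 1.2 (-0.30 to 1.49, the first without clone 1.1 replicate 1), and in R1 against R4 of WM115 S100B (-2.62 to 0.25) and S100A1 (-1.77 to 0.39) over clones left out, both highest without clone 1.2, with S100A1 at 0.14 without clone 4.2. Depth is unknown.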
